A study of Mus musculus with 20 samples.

Results

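A set of 35 genes of the lysosome was examined in mouse keratinocytes, the epithelial cells of the epidermis, which had been sorted by flow cytometry from skin of 20 mice. The genes were taken by symbol from a table of 25719 genes, and all 35 passed the filter on low counts that left 12424 genes for testing. They comprise 7 genes of the lysosomal membrane and of cholesterol export, 8 of proteases, 9 of enzymes that cut glycans, 5 of lipid enzymes and their activators, and 6 of the proton pump. The cKO mice carried K14-CreERTam, a tamoxifen-inducible Cre under a keratin 14 promoter that is active in basal keratinocytes, together with Cyp11b1 L2/L2, the floxed alleles of the gene for the last enzyme of corticosterone synthesis. The controls were Cyp11b1 L2/L2 littermates without Cre. Every mouse, control or cKO, received tamoxifen on 5 days and was sampled on day 6. In the systemic groups tamoxifen was injected intraperitoneally in oil and ethanol (100 µl of 10 mg/ml). In the topical groups it was applied in ethanol (20 µl on the ear and 100 µl on the back) after the back hair had been shaved. Each of the 4 groups, topical control, systemic control, topical cKO and systemic cKO, had 5 mice. The series set out to compare loss of skin glucocorticoid synthesis after local and after systemic induction. The route of tamoxifen cannot be told apart from shaving, vehicle or local dose, since these differed with it.

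Lysosomes are acidic vesicles in which hydrolases break down proteins, glycans and lipids delivered by endocytosis and autophagy. The V-ATPase, a proton pump made of a membrane sector (V0) and a cytosolic sector (V1), acidifies them. Many of their genes carry a short DNA element with the core TCACGTG in the promoter, which is bound by the transcription factors TFEB, TFE3 and MITF. In the epidermis, lysosomal hydrolases act within keratinocytes, and related secretory organelles deliver lipids and enzymes to the cornified layer.

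Promoter windows of 29 of the 35 genes were found in a RefSeq table (build GRCm38.p6), each running from 250 bases before to 50 bases after a transcription start. TCACGTG on either strand was present in 12 of the 29 (41.4%, exact 95% interval 23.5 to 61.1%), against 4.29% of the 27025 genes with a window of this length and 7.16% of the 9468 of these that were tested. The shorter centre CACGTG, which lies within it, was present in 13 of 29 (44.8%) and in 8.09% of all genes with a window. By class, TCACGTG was found in 4 of 8 glycan enzyme genes, 3 of 5 proton pump genes, 3 of 6 protease genes, 2 of 6 membrane and cholesterol genes and 0 of 4 lipid enzyme genes. A match is a string of letters and was not tested for binding. The windows of 4 genes are printed because they hold the element and belong to genes on which the results below turn: 2 that were lower in systemic controls (Gaa and Atp6v1a), the 1 whose route difference differed between genotypes (Glb1), and the gene with the highest level (Lamp1). They are shown 5′ to 3′ on the strand of the gene, without any base of an annotated exon, and capitals mark TCACGTG on either strand.
Gaa, chr11:119267713-119267886, plus strand: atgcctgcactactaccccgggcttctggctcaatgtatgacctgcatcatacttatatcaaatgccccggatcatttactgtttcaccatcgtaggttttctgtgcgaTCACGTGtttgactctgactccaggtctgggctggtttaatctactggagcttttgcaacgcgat
Atp6v1a, chr16:44139306-44139461, minus strand: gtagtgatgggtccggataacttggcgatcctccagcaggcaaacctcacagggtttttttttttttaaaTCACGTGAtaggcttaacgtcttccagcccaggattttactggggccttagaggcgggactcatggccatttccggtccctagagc
Glb1, chr9:114400828-114401075, plus strand: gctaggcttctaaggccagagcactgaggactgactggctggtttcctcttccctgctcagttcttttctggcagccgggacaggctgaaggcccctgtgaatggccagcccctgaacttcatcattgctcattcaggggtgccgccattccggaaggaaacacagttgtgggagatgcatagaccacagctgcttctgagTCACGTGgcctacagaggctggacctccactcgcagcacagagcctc
Lamp1, chr8:13158911-13159160, plus strand: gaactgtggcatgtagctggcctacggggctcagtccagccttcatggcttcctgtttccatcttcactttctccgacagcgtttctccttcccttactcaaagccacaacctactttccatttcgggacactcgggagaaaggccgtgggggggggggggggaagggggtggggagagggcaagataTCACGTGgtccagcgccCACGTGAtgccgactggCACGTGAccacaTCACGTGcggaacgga
The Lamp1 window holds the element 4 times within its last bases before the start, the Gaa and Glb1 windows hold it once each, and the Atp6v1a window holds it once on each strand, overlapping within its single run of capitals.

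Library totals ran from 11.6 to 50.1 M counts. The deleted gene Cyp11b1 had at most 6 counts in any library, so the deletion could not be checked from these counts. Summed levels of 8 keratinocyte markers were 71612 to 105320 CPM (counts scaled to an equal library total) across the libraries. Summed levels of 14 macrophage and Langerhans cell markers, cells rich in lysosomes, were 10.5 to 21.7 CPM in topical and 11.2 to 38.5 CPM in systemic libraries. Of those 14 markers 10 did not pass the filter on low counts, and none of the other 4 was called in a route comparison (edgeR; 0 in controls and 2 in cKO had an unadjusted p under 0.05). In cKO those same 4 markers had a median log2 difference of 0.75, systemic minus topical, with 3 above 0 and 2 higher without overlap; in controls the median was 0.12. A list of 6 sebaceous gland markers summed to 781 to 3330 CPM in topical and 177 to 2708 CPM in systemic libraries, with no marker called in either genotype (edgeR; 1 and 2 had an unadjusted p under 0.05). All 6 had log2 differences below 0 in both genotypes (medians −0.85 in controls and −1.04 in cKO), and their part in the results below was not tested. Melanocyte markers summed to at most 35.1 CPM, fibroblast markers to at most 31.97 CPM, and T cell and endothelial markers to at most 8.81 CPM each; of these, 1 melanocyte marker was called, higher in systemic controls. In cKO all 4 tested fibroblast markers (median log2 difference −1.26, 1 without overlap) and all 4 endothelial markers (median −1.07) had log2 differences below 0, as most lysosomal genes did, with 1 of each list at an unadjusted p under 0.05; in controls the medians were 0.65 and −0.056. The part of these markers in the results below was not tested. A group of 6 libraries, all 5 systemic controls and the library of systemic cKO mouse 2, held 79.4 to 37287 CPM of 12 predicted genes that resemble satellite repeats, against 0.839 to 42.5 CPM in the other 14. Among controls these transcripts and the route cannot be told apart, since every systemic control and no topical control was over 50 CPM. In bulk samples, fewer cells that express a gene and less RNA per cell cannot be told apart.

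Compared per kilobase of exon (GENCODE vM21, GRCm38), the lysosomal genes spanned levels from 0.465 CPM per kb for Galns, a sulfatase of keratan sulfate breakdown, to 346 CPM per kb for Lamp1, a major glycoprotein of the lysosomal membrane, as means over the 4 groups. Ctsd, the main aspartic protease of the lysosome, was next to Lamp1 at 343 CPM per kb, although 34.4% of its exon bases are shared with a predicted gene on the same strand. The accessory pump subunit Atp6ap1 (78.4), the cysteine protease Ctsb (68.8), the sphingolipid activator precursor Psap (65.4) and the V0 subunit Atp6v0b (57.8 CPM per kb) formed the next tier. Among the glycan enzymes Gaa, which digests glycogen, had the highest level at 9.81 CPM per kb. The means of Lamp1 and Ctsd differed by less than the SD between mice in any group.

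**Figure D1:**
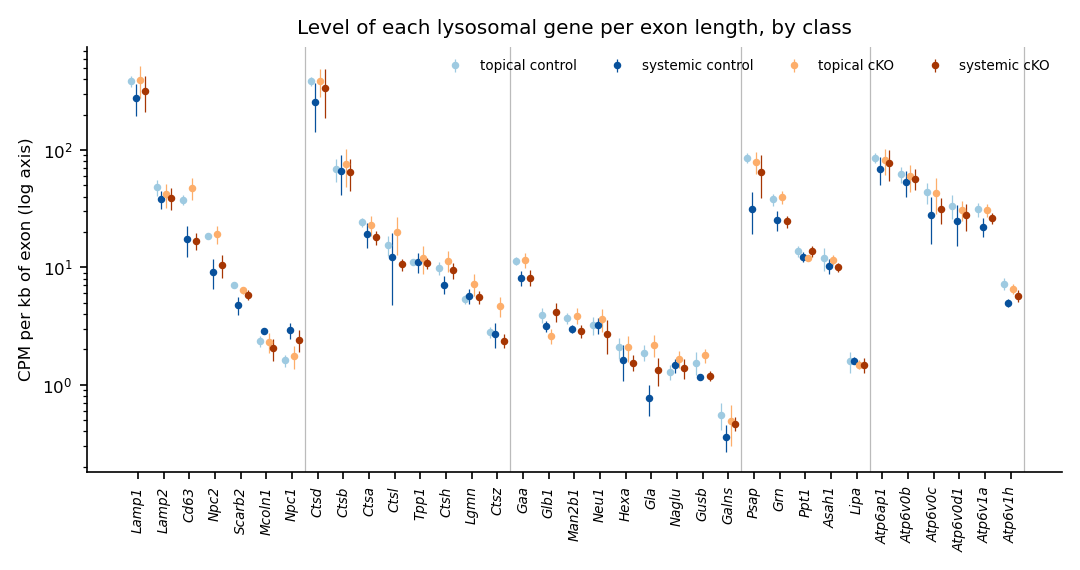
Mean level of each of the 35 lysosomal genes in CPM per kilobase of exon on a log axis (points, with bars for ± 1 SD over 5 mice), by group and ordered within 5 functional classes. Lamp1 and Ctsd lie above all others and Galns lies lowest.

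Where lysosomal genes differed between routes, they were mostly lower after systemic than after topical tamoxifen, in controls and in cKO, with Npc1 and Glb1 as the exceptions. In controls 10 of the 35 genes were lower and 1 was higher, so that 31.4% were called, against 18.3% of all genes tested. In cKO 8 were lower and 1 was higher, 25.7% called against a background of 9.22%. Genes called lower made up 28.6% of the 35 in controls, against 8.16% of all genes, and 22.9% in cKO, against 4.02%. Over all genes, 10.2% were called higher in controls and 5.19% in cKO. A call is an adjusted p under 0.05 in edgeR's quasi-likelihood test, with Benjamini-Hochberg adjustment over all 12424 genes. The median log2 fold change, systemic minus topical, was −0.35 over the 35 genes in controls and −0.26 in cKO, where the medians over all genes tested were 0.00081 and −0.013. The log2 fold change was below 0 for 29 of 35 genes in controls and 32 of 35 in cKO, against 6205 and 6396 of 12424 genes. A total of 5 genes were called lower in both genotypes (Cd63, Npc2, Gla, Gaa and Grn), where 1.72% of all genes were, and 0 of the 35 were called higher in both, where 1.92% of all genes were. The 2 route comparisons share no mouse. The 5 libraries of one route lay wholly outside the range of the other for 9 lower and 2 higher genes in controls (all genes: 6.26% lower and 7.54% higher), and for 5 lower and 0 higher genes in cKO (3.32% and 4.07%). Scaled to the library total alone, 9 of the 35 were called in controls and 5 in cKO, with 7.72% and 4.35% of all genes called. With the log2 level of the satellite-like transcripts as a covariate, chosen after the data were seen, 1 of the 35 was called in controls, where 0.950% of all genes were, and 10 in cKO, where 10.5% were.

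Summed over the 35 genes on the scale of the library total, the 5 topical controls had 4374 to 5671 CPM and the 5 systemic controls 3160 to 3891 CPM, so these groups did not overlap. Topical cKO had 4535 to 5522 CPM and systemic cKO 3323 to 4773 CPM. Of the 5 systemic cKO libraries 4 were below every topical cKO library, and the library of mouse 4, the deepest of all, was within their range. Lamp1 and Ctsd make up much of these sums.

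**Figure D2:**
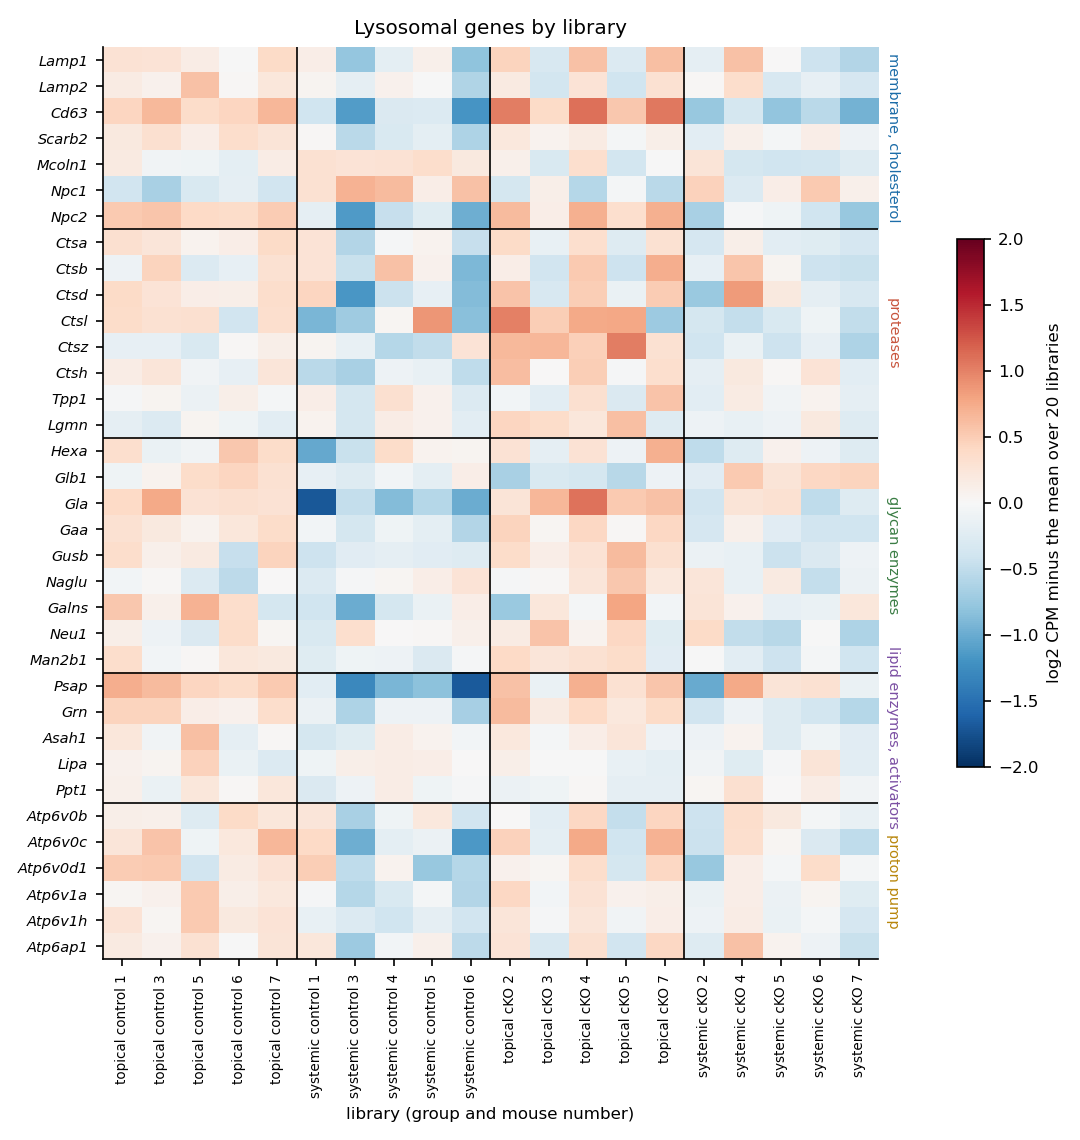
Level of each lysosomal gene in each library, as log2 CPM minus that gene's mean over the 20 libraries, with libraries in columns by group and mouse number and genes in rows by class. Systemic libraries, in the second and last blocks, are mostly blue (lower) for Cd63, Npc2, Gla and Grn, while Npc1 is red (higher) in systemic controls.

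Among the membrane and cholesterol genes, 3 of 7 were lower and 1 was higher in controls (median log2 fold change −0.48), and 2 were lower in cKO (median −0.19). Cd63, a tetraspanin of late endosomes and lysosomes, had the largest fall of the 35 genes in cKO. Its level was 132, 152, 125, 131 and 155 CPM in the topical controls and 73.5, 44.7, 79.9, 80.4 and 43.2 CPM in the systemic controls. In topical cKO it was 199, 128, 210, 141 and 203 CPM, and in systemic cKO 57.3, 76.4, 56.1, 66.8 and 50.6 CPM. Every systemic library was below every topical library in both genotypes. The fall was 2.16-fold in controls (log2 fold change −1.11, SE 0.199, adjusted p = 0.00076 in edgeR's quasi-likelihood test) and 2.86-fold in cKO (−1.52, SE 0.201, adjusted p = 7.0e-05).

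Npc2, the soluble protein that hands cholesterol to Npc1 for export from the lysosome, fell as well. It was at 104, 106, 95.6, 93.3 and 103 CPM in topical controls against 63.8, 33.02, 52.7, 61.2 and 36.9 CPM in systemic controls. In cKO it was at 112, 79.7, 119, 91.2 and 119 CPM after topical and 46.2, 71.5, 68.2, 54.6 and 42.6 CPM after systemic tamoxifen. The groups did not overlap in either genotype, and the falls were 2.03-fold and 1.84-fold (log2 −1.02, SE 0.190, and −0.88, SE 0.190; adjusted p = 0.0011 and 0.0046, edgeR). Its partner Npc1, the membrane transporter of the same export step, went the other way in controls. Npc1 averaged 18.2 ± 2.14 CPM in topical and 32.9 ± 5.23 CPM in systemic controls (SD, n = 5 each), ranges of 14.99 to 20.9 and 25.8 to 38.0 CPM that did not overlap, with a log2 fold change of 0.86 (SE 0.165, edgeR adjusted p = 0.0015). Over 14 alternative analyses the Npc1 difference in controls ran from 0.55 to 0.93, and the call was lost in 3. It was lost in 0 of the 10 fits that left out 1 control library. In cKO the Npc1 means were 19.8 ± 4.32 and 27.4 ± 5.79 CPM, the ranges overlapped and the difference did not pass the test (0.46, edgeR adjusted p = 0.082). The difference between the 2 route differences did not pass it either (−0.39, adjusted p = 0.46).

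Scarb2, the membrane receptor that carries glucocerebrosidase to the lysosome, was lower in systemic controls (29.9 ± 5.42 against 44.2 ± 2.66 CPM; log2 −0.56, SE 0.120, edgeR adjusted p = 0.0032) and had a log2 difference of −0.12 in cKO that did not pass the test. Mcoln1, the calcium release channel of the lysosome, had non-overlapping ranges in controls, 15.4 to 20.1 CPM after topical and 20.2 to 22.7 CPM after systemic tamoxifen, and was not called (0.28, edgeR adjusted p = 0.18). Lamp1 and Lamp2, the abundant membrane glycoproteins, were not called in any comparison. Lamp1 had log2 differences of −0.48 (95% interval −0.99 to 0.039) in controls and −0.32 (−0.84 to 0.19) in cKO.

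**Figure D3:**
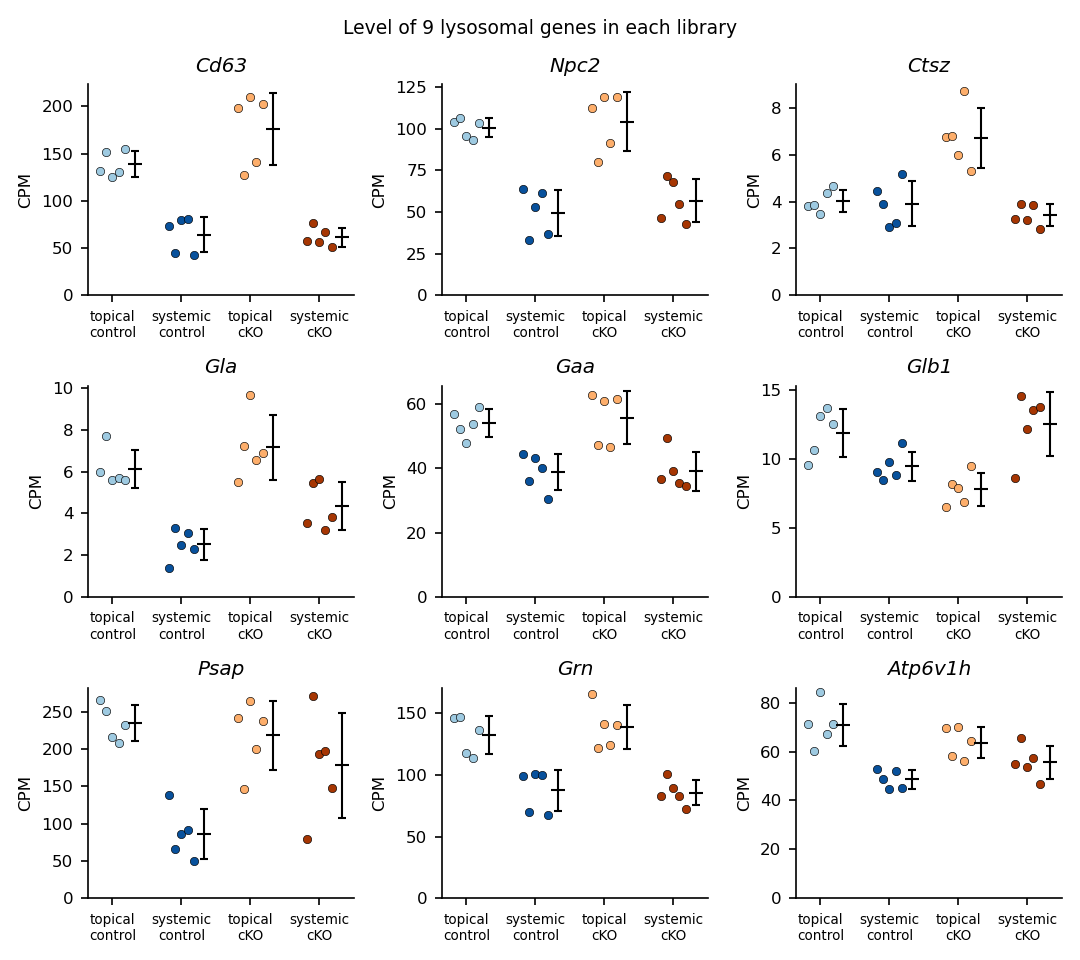
Level in CPM of 9 lysosomal genes in each library (points), with the mean and ± 1 SD over 5 mice beside them, on linear axes from 0. Systemic and topical libraries do not overlap in either genotype for Cd63, Npc2 and Grn, while Ctsz is high in topical cKO and Glb1 is low there.

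Of the 8 proteases 1 was lower in controls (median log2 fold change −0.20) and another was lower in cKO (median −0.31). Ctsz, a carboxypeptidase of the cathepsin family, was at 6.74, 6.80, 6.00, 8.71 and 5.31 CPM in topical cKO and at 3.26, 3.91, 3.23, 3.86 and 2.81 CPM in systemic cKO, without overlap. In topical controls it was at 3.83, 3.84, 3.48, 4.36 and 4.66 CPM and in systemic controls at 4.47, 3.88, 2.90, 3.07 and 5.20 CPM. The topical cKO libraries were thus above those of the other 3 groups. The route difference was 1.97-fold in cKO (log2 −0.98, SE 0.178, edgeR adjusted p = 0.0011) and −0.036 on the log2 scale in controls (95% interval −0.39 to 0.31). The difference between the 2 route differences was −0.94 (SE 0.252, adjusted p = 0.090), and that between topical cKO and topical controls was 0.74 (adjusted p = 0.15, edgeR); neither passed the test.

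Ctsh, an aminopeptidase, was the protease lower in systemic controls (32.0 ± 5.62 against 44.2 ± 5.53 CPM, log2 −0.47, edgeR adjusted p = 0.038), with overlapping ranges. That call was lost in 6 of the 10 fits that left out 1 control library (adjusted p up to 0.11), with library totals alone (−0.42, adjusted p = 0.13), without a filter on low counts (−0.49, adjusted p = 0.061) and with the satellite-like transcripts as a covariate (−0.26 for their log2 level and −0.20 for levels over 50 CPM). Ctsl, a cysteine protease that acts in epidermal and hair follicle turnover, varied widely between mice of 1 group. It ranged from 45.9 to 160 CPM in systemic controls and from 52.5 to 173 CPM in topical cKO, and its log2 differences of −0.35 in controls and −0.90 in cKO did not pass the test (edgeR adjusted p = 0.47 and 0.073). Ctsa, Ctsb, Ctsd, Lgmn (legumain) and Tpp1 (tripeptidyl peptidase) were not called in either genotype. Tpp1 had the same mean in both control groups, 57.3 CPM, with a 95% interval of −0.32 to 0.32 for the log2 difference.

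Of the 9 glycan enzyme genes 2 were lower in controls (median log2 fold change −0.35), and 4 were lower and 1 was higher in cKO (median −0.44). Gla, alpha-galactosidase A, whose loss in humans is Fabry disease, was at 6.00, 7.73, 5.597, 5.71 and 5.58 CPM in topical controls and at 1.40, 3.29, 2.50, 3.07 and 2.31 CPM in systemic controls. It was at 5.48, 7.21, 9.69, 6.56 and 6.88 CPM in topical cKO and at 3.52, 5.48, 5.66, 3.23 and 3.81 CPM in systemic cKO. The control groups did not overlap and the cKO groups did, by a small margin. Gla fell 2.44-fold in controls (log2 −1.29, SE 0.219, edgeR adjusted p = 0.00051) and 1.62-fold in cKO (−0.70, SE 0.210, adjusted p = 0.040). The cKO call was near the threshold. It was lost in 7 of the 10 fits that left out 1 cKO library, where the highest edgeR adjusted p was 0.11. In those 10 fits the difference ran from −0.81 to −0.57. The call was also lost in 5 of 14 alternative analyses, over which the difference ran from −0.78 to −0.63.

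Gaa, the acid glucosidase that digests glycogen and is lacking in Pompe disease, was at 57.0, 52.3, 48.0, 53.8 and 59.1 CPM in topical controls and at 44.4, 36.1, 43.3, 40.04 and 30.5 CPM in systemic controls. In cKO it was at 62.7, 47.1, 61.1, 46.5 and 61.4 CPM after topical and at 36.6, 49.4, 39.3, 35.3 and 34.6 CPM after systemic tamoxifen. Only the systemic cKO library of mouse 4 reached into the topical range. The falls were similar in size, 1.39-fold in controls (log2 −0.48, SE 0.136, edgeR adjusted p = 0.019) and 1.43-fold in cKO (−0.51, SE 0.136, adjusted p = 0.020). The control call was lost without systemic control mouse 3 or mouse 6 (adjusted p = 0.051 and 0.059), and the cKO call without systemic cKO mouse 6 or mouse 7 (0.053 and 0.052). With the satellite-like transcripts as a covariate the control difference was −0.29 (log2 level) or −0.36 (levels over 50 CPM) and was not called. The cKO call was also lost without a filter on low counts (edgeR adjusted p = 0.052) and in a fit of only the libraries compared (0.065). Gusb, the beta-glucuronidase of glycosaminoglycan breakdown, and Man2b1, the lysosomal alpha-mannosidase, were lower in systemic cKO (log2 −0.58 and −0.44, edgeR adjusted p = 0.018 and 0.031), and had log2 differences of −0.42 and −0.30 in controls that did not pass the test. The Man2b1 call was lost in 6 of the 10 fits that left out 1 cKO library (adjusted p up to 0.086), and the Gusb call in 2, those without topical cKO mouse 5 (0.071) or systemic cKO mouse 5 (0.054). Both were lost with library totals alone (edgeR adjusted p = 0.28 for Man2b1 and 0.18 for Gusb). Man2b1 was also lost without a filter (0.078) and in a fit of only the libraries compared (0.094), and Gusb with the mouse number as a replicate block (0.055). Hexa, Naglu, Galns and Neu1 were called in neither genotype.

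Glb1, the beta-galactosidase that acts on keratan sulfate and ganglioside GM1, was the only one of the 35 genes whose route difference differed between genotypes (2.86% of them, against 0.25% of all genes). It was at 9.53, 10.7, 13.1, 13.7 and 12.5 CPM in topical controls and at 9.06, 8.46, 9.74, 8.86 and 11.1 CPM in systemic controls. It was lower in topical cKO, at 6.503, 8.19, 7.92, 6.87 and 9.50 CPM, than in systemic cKO, at 8.63, 14.5, 12.2, 13.5 and 13.8 CPM. The systemic cKO libraries were above the topical cKO libraries except that of mouse 2. Glb1 was 1.62-fold higher in systemic than in topical cKO (log2 0.70, SE 0.150, edgeR adjusted p = 0.0044) and had a log2 difference of −0.33 in controls (SE 0.149, adjusted p = 0.13). The cKO call was lost in 1 of 14 alternative analyses and in 0 of 10 fits that left out 1 cKO library. The difference between the 2 route differences was 1.03 (SE 0.211, adjusted p = 0.039, edgeR). That call was lost in 14 of 20 fits that left out 1 library, in which the difference ranged from 0.96 to 1.13 and the adjusted p rose to 0.086 at most. It was also lost when libraries were scaled by their totals alone (0.89, adjusted p = 0.44) and with the mouse number as a replicate block (0.93, adjusted p = 0.057). As covariates, the log2 satellite-like level gave 0.74 and satellite-like levels over 50 CPM gave 0.48, and neither fit called the difference. Glb1 shares 5.49% of its exon bases with another gene on the same strand.

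**Figure D4:**
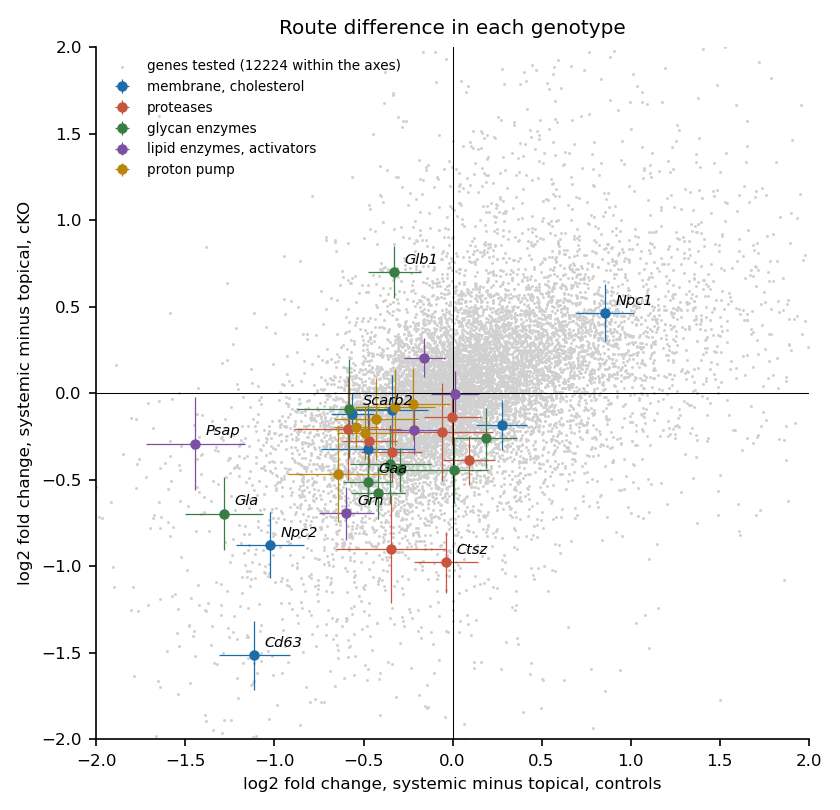
Log2 fold change from topical to systemic tamoxifen in controls (x axis) and in cKO (y axis) for the 35 lysosomal genes (coloured by class, bars ± 1 SE) over 12224 of the 12424 genes tested (grey), with 200 genes outside the axis limits of 2 not drawn. Most lysosomal genes lie below 0 on both axes, with Npc1 above 0 on both and Glb1 above 0 in cKO only.

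Among the 5 lipid enzyme and activator genes 2 were lower in controls (median log2 fold change −0.22) and 1 in cKO (median −0.21). Grn encodes progranulin, whose fragments act in the lysosome. It was at 146, 147, 118, 114 and 136 CPM in topical controls and at 98.8, 70.1, 100.5, 100.2 and 67.9 CPM in systemic controls. In topical cKO it was at 166, 122, 142, 124 and 141 CPM, and in systemic cKO at 82.8, 101, 89.6, 83.2 and 72.7 CPM. The groups did not overlap in either genotype, and the falls were 1.51-fold in controls and 1.62-fold in cKO (log2 −0.60 and −0.70, SE 0.154 each, edgeR adjusted p = 0.010 and 0.0055).

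Psap, which encodes the precursor of the saposins that present sphingolipids to their hydrolases, had the largest fall of the 35 genes in controls. It was at 266, 251, 217, 208 and 233 CPM in topical controls and at 139, 65.7, 85.9, 91.6 and 50.2 CPM in systemic controls. In topical cKO it was at 242, 147, 265, 200 and 238 CPM, and in systemic cKO at 80.1, 271, 194, 198 and 148 CPM. The control groups did not overlap; in cKO the library of mouse 2 alone was below the topical range. Psap fell 2.72-fold in controls (log2 −1.44, SE 0.277, edgeR adjusted p = 0.0014) and had a log2 difference of −0.29 in cKO (95% interval −0.82 to 0.24), while the difference between the 2 did not pass the test (1.15, adjusted p = 0.16). The 6 libraries with high satellite-like transcripts had 50.2 to 139 CPM of Psap and the other 14 had 147 to 271 CPM. Of the 35 genes, 1, Psap, had those 6 libraries wholly outside the range of the others. This split was chosen after the data were seen, and the share of all genes parted in this way was not computed. With the log2 satellite-like level as a covariate the route difference of Psap in controls was −0.61 (edgeR adjusted p = 0.28).

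Asah1, the acid ceramidase, Lipa, the acid lipase that frees cholesterol from its esters, and Ppt1, a palmitoyl-protein thioesterase, were not called in either genotype. Lipa had log2 differences of 0.013 (95% interval −0.25 to 0.28) in controls and −0.0083 (−0.27 to 0.26) in cKO.

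All 6 proton pump genes had log2 fold changes below 0 in both genotypes, with medians of −0.46 in controls and −0.17 in cKO. In controls 2 of the 6 were called and in cKO none, with none at an unadjusted p under 0.05 there. Atp6v1h, a regulatory subunit of the cytosolic sector, was at 71.2, 60.4, 84.2, 67.1 and 71.5 CPM in topical controls and at 52.9, 48.7, 44.8, 52.2 and 44.9 CPM in systemic controls. Levels in topical cKO were 69.8, 58.2, 69.9, 56.2 and 64.3 CPM, and in systemic cKO 55.0, 65.4, 53.5, 57.4 and 46.8 CPM. The control groups did not overlap and the cKO groups did. Atp6v1h fell 1.45-fold in controls (log2 −0.54, SE 0.123, edgeR adjusted p = 0.0046) and had a difference of −0.19 in cKO (adjusted p = 0.36). Atp6v1a, the catalytic subunit, was lower in systemic controls (135 ± 24.96 against 189 ± 26.6 CPM, log2 −0.49, edgeR adjusted p = 0.035), without overlap. That call was lost in 5 of 10 fits that left out 1 control library. It was also lost in 5 of 14 alternative analyses, over which the log2 difference ran from −0.54 to −0.31. Atp6v0b, Atp6v0c and Atp6v0d1 of the membrane sector and Atp6ap1 were not called. No difference between the route differences passed the test for any pump gene.

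**Figure D5:**
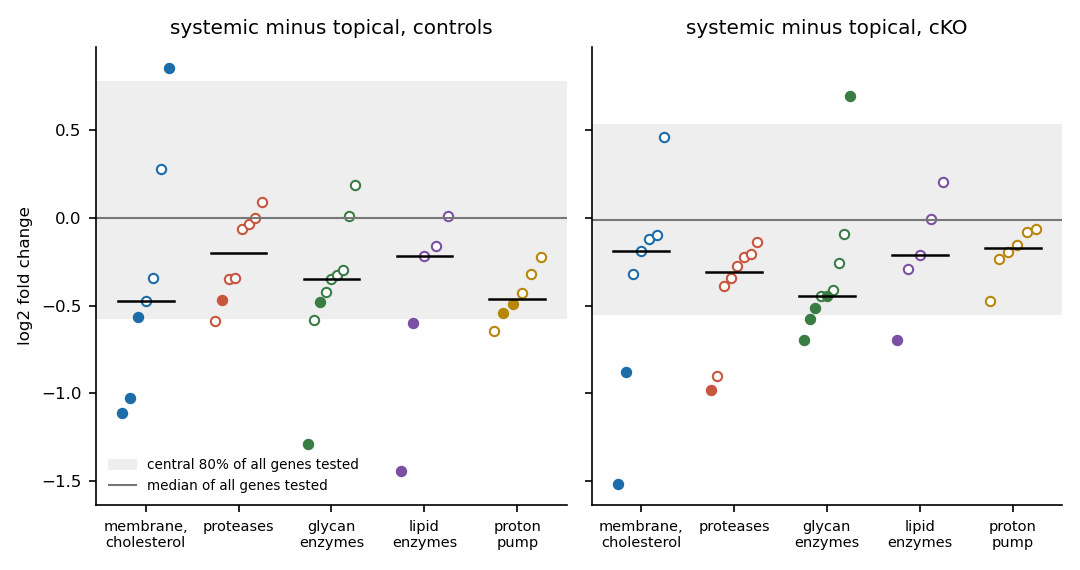
Log2 fold change from topical to systemic tamoxifen in controls (left) and cKO (right) for each lysosomal gene by class, filled where called at an adjusted p under 0.05, with the class median (black line), the median of all genes tested (grey line) and their central 80% (shading). Each class median is below the grey line in both genotypes.

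Between cKO and controls given tamoxifen by the same route, none of the 35 genes was called. After topical tamoxifen 16 of all genes (0.129%) were called, and 4 of the 35 had an unadjusted p under 0.05, against 703 of 12424 genes. DESeq2's Wald test called 2 of the 35 (0.338% of all genes) and limma voom 1 (0.209%). After systemic tamoxifen 235 of all genes (1.89%) were called. DESeq2's Wald test called 3 of the 35 there, where it called 4.78% of all genes. In edgeR 6 of the 35 had an unadjusted p under 0.05, against 1907 of 12424 genes. The smallest adjusted p there was that of Psap, which was higher in systemic cKO than in systemic controls (178 ± 70.5 against 86.4 ± 33.5 CPM; log2 1.05, SE 0.274, edgeR adjusted p = 0.0501), followed by Gla (0.81, adjusted p = 0.058) and Mcoln1 (−0.49, adjusted p = 0.078). Without the library of systemic cKO mouse 2, 4 of the 35 genes were called. The share of all genes called in that fit is not given here, so this count has no background.

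The share of mitochondrial counts in a library ran from 1.87 to 7.49%, and is set here beside the level of Lamp1. In the topical controls Lamp1 was at 1089.9, 1075, 979.5, 879 and 1160.5 CPM at mitochondrial shares of 3.68, 3.07, 5.24, 5.78 and 2.88%. In the systemic controls Lamp1 was at 976, 522, 772, 950 and 508 CPM where the mitochondrial share was 2.44, 5.94, 1.87, 3.15 and 6.42%. In topical cKO Lamp1 was at 1212, 710, 1331, 738 and 1346 CPM at shares of 3.56, 7.25, 2.67, 7.49 and 2.96%. In these 3 groups the 2 libraries with the highest share had the lowest Lamp1. In systemic cKO this was not so: Lamp1 was at 783, 1339, 892, 666 and 589.7 CPM at shares of 6.03, 2.45, 5.28, 6.05 and 5.28%, and the lowest library, that of mouse 7, was not among the 2 with the highest share. With that share as a covariate, 17 of the 35 genes were called in controls (16 of them lower), where 28.1% of all genes were called, and 10 in cKO, where 13.8% were. The same fit called 3 in the difference of the route differences, against 2.93% of all genes, and 8 between systemic cKO and systemic controls, against 10.6%. In that fit Lamp1 was called lower in systemic controls (−0.55, edgeR adjusted p = 0.0070), as it was with library totals alone (−0.49, adjusted p = 0.038).

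Beyond the 35, 100 other lysosomal genes were listed, of which 85 were tested. In controls 22 of the 85 were lower and 8 higher (median log2 fold change −0.19), where 8.16% of all genes tested were lower and 10.2% higher. In cKO 9 were lower and 3 higher (median −0.080), where 4.02% and 5.19% of all genes were. In both genotypes 8 were lower and 0 were higher, where 1.72% and 1.92% of all genes were. The same shares over all genes apply to the counts by list below. The 15 that did not pass the filter included the pump subunits Atp6v0d2 and Atp6v1b1, the cathepsins Ctsk and Ctss and the membrane protein Laptm5.

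Of 15 other pump genes tested, 3 were lower and 1 higher in controls, and 2 were lower and 1 higher in cKO. Atp6ap2, an accessory subunit also known as the prorenin receptor, was at 120, 111, 157, 119 and 126 CPM in topical controls and at 64.8, 63.1, 59.6, 71.0 and 51.1 CPM in systemic controls. Levels in topical cKO were 137, 104, 133, 108 and 121 CPM, and in systemic cKO 72.8, 76.0, 61.9, 63.4 and 58.7 CPM. The groups did not overlap in either genotype (log2 −1.03, SE 0.140, and −0.86, SE 0.139; edgeR adjusted p = 8.5e-05 and 0.00043). Atp6v1b2, which forms the catalytic head with Atp6v1a, was lower as well (log2 −0.71 and −0.54, adjusted p = 0.0030 and 0.026). Tcirg1, an a subunit of the membrane sector, was higher in systemic controls (0.70, adjusted p = 0.015).

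Of 16 other glycan enzyme genes, 6 were lower and 2 higher in controls, and 2 were lower and 1 higher in cKO. Hyal1, a hyaluronidase, was higher in systemic controls (log2 1.09, edgeR adjusted p = 0.00077), although at least 50.8% of its exon bases are shared with Naa80 or Hyal3 on the same strand. Among 18 other membrane genes, 3 were lower and 3 higher in controls. Tmem192, a lysosomal membrane protein, was lower in both genotypes without overlap (−0.60 and −0.63, adjusted p = 0.0049 in each). Of 6 other protease genes 1 was called in controls and 0 in cKO (edgeR; 1 with an unadjusted p under 0.05). Of 9 other lipid genes 3 were called in controls and 0 in cKO (2 with an unadjusted p under 0.05). Of 6 genes for delivery of enzymes to the lysosome 0 were called in either genotype, and 1 had an unadjusted p under 0.05 in each.

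Of 15 tested genes that regulate lysosomal transcription or signal from the lysosome, 7 were lower and 1 higher in controls, and 4 were lower in cKO. Tfe3, which binds the TCACGTG element, was higher in systemic controls (23.5 ± 1.36 against 17.1 ± 2.49 CPM, log2 0.46, edgeR adjusted p = 0.013), while its relatives Tfeb (0.13) and Mitf (−0.0071) were not called. Lamtor3, a subunit of the Ragulator complex that anchors mTORC1 signalling on the lysosome, was lower in both genotypes without overlap (−0.65 and −0.43, adjusted p = 0.0018 and 0.034). Rragd, a Rag GTPase that binds Ragulator and is itself a known target of TFEB and TFE3, was at low levels, 0.53 ± 0.36 CPM in topical and 0.112 ± 0.103 CPM in systemic controls, 1.25 ± 0.654 CPM in topical and 0.11 ± 0.103 CPM in systemic cKO. Rragd had 0 to 10 counts per library in systemic controls and 0 to 4 in systemic cKO, and passed the filter through its topical libraries. It was called lower in both genotypes (log2 −1.94 and −3.61, edgeR adjusted p = 0.045 and 0.0013). With so few counts the size of these falls is uncertain.

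Gpnmb, a glycoprotein of lysosome-related organelles that MITF-family factors regulate in several cell types, had by far the widest gap of the listed genes. It was at 539, 390, 448, 337 and 428 CPM in topical controls and at 4.02, 8.94, 5.53, 3.003 and 3.30 CPM in systemic controls. In topical cKO it was at 890, 390, 835, 645 and 645 CPM, and in systemic cKO at 5.11, 4.69, 5.10, 11.5 and 7.88 CPM. Every topical library was above every systemic library, and the falls were 86.4-fold and 99.7-fold (log2 −6.43, SE 0.374, and −6.64, SE 0.376; edgeR adjusted p = 4.6e-10 and 2.7e-10). Summed melanocyte markers, by comparison, were at 4.13 to 12.5 CPM in topical and 6.97 to 35.1 CPM in systemic libraries.

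Among the 29 lysosomal genes with a promoter window used here, 11 were called lower in either genotype. TCACGTG was present in 3 of these 11 (Gaa, Gla and Atp6v1a) and in 9 of the other 18. The other 8 of those 11, Cd63, Npc2, Scarb2, Psap, Grn, Ctsz, Gusb and Man2b1, had no match in their windows, which says only that these letters are absent there. The Gla matches lie in a stretch that also holds exon bases of the neighbouring gene Hnrnph2.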

How the data were processed

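RNA was sequenced as SmartSeq II libraries from sorted keratinocytes of each mouse, 20 mice in 4 groups of 5. The authors deposited 1 table of raw counts, whole-number reads per gene without normalization; STAR and featureCounts on GRCm38 are named in the submitters' processing notes, while their versions, the annotation and the strand setting are not given in the sources used here. The lysosomal genes, gene lists and alternatives were chosen with earlier results of these data known.

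All 20 libraries were fitted together in edgeR 4.0.16 (R 4.3.3): TMM scaling, the default filterByExpr filter on low counts (at least 10 in enough libraries and 15 in total), a robust quasi-likelihood model with 1 coefficient per group, two-sided tests, and Benjamini-Hochberg adjustment over 12424 genes. Levels are CPM with TMM factors, summed levels of lists are per library total, and errors are SDs over 5 mice or, for log2 fold changes, standard errors (SE). Mice are the replicates, and the mouse numbers shared between groups mark different mice. Every count has at least its counting error, and a floor of 3 counts equals 0.0729 to 0.264 CPM. On simulated data of the same size, 169 of 200 genes changed by 1.5 on the log2 scale were called, with 9 false calls. In a comparison without changes 0 of 12424 genes were called. The counts were drawn gene by gene, without variation shared between genes and without the satellite-like split. Of the 35 genes only Cd63 in cKO had a route difference past 1.5 in size, so these rates do not carry over to the data.

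Values in every library are given for genes called in both route comparisons, called in 1 with a log2 fold change past 1 in size, or called in the difference between them, up to 4 per class by adjusted p, or else for the gene with the smallest p in its class. Up to 3 genes per further list called in both comparisons were also named; any other gene was named after its values were seen. Of 25719 identifiers, 25665 were found in GENCODE vM21, which supplied positions and exon lengths. Genes overlapping on the opposite strand cannot be separated if counting ignored strand; this concerns 12.8% of the exon bases of Ctsb and Hexa, 10.5% of Ctsa and 9.31% of Lamp1. Alternatives were other scalings and filters, DESeq2 1.42.0, limma 3.58.1 voom, covariates, a block on mouse number, and leaving out each library.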

Additional observations from a re-analysis of the deposited data

Results flagged for a closer look

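With 140 sets of 5 libraries examined (35 genes in 4 groups), 4 had an extreme library past the 95% critical value for its gap to the nearest one; chance gives about 1 set in 20. Mcoln1 was at 21.05 CPM in systemic cKO mouse 2, where the next library had 14.76 CPM. Ctsa was at 105.8 CPM in systemic cKO mouse 4, where the next had 83.84 CPM. Ctsl was at 66.27 CPM in topical control mouse 6, where the next had 107.5 CPM. Gla was at 7.729 CPM in topical control mouse 3, where the next had 6.002 CPM. No library was extreme for more than 1 of the 35 genes.

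The route difference of Glb1 differed between genotypes, by 1.025 on the log2 scale (SE 0.211, adjusted p = 0.039 in edgeR's quasi-likelihood test of the interaction). The gene was at 6.503 to 9.50 CPM in topical cKO and at 8.46 CPM or above in the other 3 groups.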

How the results depend on the processing

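In controls 11 lysosomal genes were called in the reported analysis, 8 to 13 of them when 1 library was left out; in cKO 9 were, and 6 to 10 when 1 was left out. Cd63, Npc2 and Grn stayed called in both genotypes in every fit that left out 1 library. Of the other lysosomal genes, 30 were called in controls (23 to 31 without 1 library) and 12 in cKO (7 to 13). For the difference of the route differences the count was 1 (0 to 2), between cKO and controls 0 after topical (0 to 0) and 0 after systemic tamoxifen (0 to 4).

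Scaling by library totals alone gave 5 of the 35 genes in cKO, 10 other lysosomal genes in controls and 3 in cKO. Of all genes, 7.72% were called there in controls and 4.35% in cKO. That scaling gave 0 of the 35 for the difference of route differences (0.032% of all genes) and 1 between systemic groups (0.41%). DESeq2's Wald test gave 2 for the difference of route differences (2.69% of all genes), 2 between topical groups (0.338%) and 3 between systemic groups (4.78%). With limma voom 1 was called between topical groups (0.209% of all genes). Without a filter, with a mean of at least 5 CPM, with non-robust dispersion or with sex as a covariate, 1 gene was called between systemic groups. In these fits 0.875%, 2.70%, 1.90% and 2.44% of all genes were called. A fit of only the libraries compared gave 7 other lysosomal genes in cKO, where 6.39% of all genes were called. The mitochondrial percent as a covariate gave 17 in controls, 3 for the difference of route differences and 8 between systemic groups, with 28.1%, 2.93% and 10.6% of all genes called in the same fit. With covariates chosen after the data were seen, the log2 satellite-like level gave 1 of the 35 and 4 other genes in controls (0.950% of all genes). For the difference of route differences it gave 0 (0% of all genes). Satellite-like levels over 50 CPM, which equal the route among controls, gave 0, 1 and 0. In that fit 0.0080% of all genes were called in controls and 0% for the difference of route differences. The full palindrome of 10 bases around the element was in 0% of the 29 promoter windows and CACGTG in 44.8%.

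Deviations of same-numbered mice from their group means had correlations of −0.31 to 0.34. These were not set beside differently numbered mice, so they do not settle whether the numbers pair mice. With the mouse number as a replicate block, 0 genes were called for the difference of route differences and 3 between systemic groups, and the Gaa difference was 0.018.

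Some uncalled values changed sign. Ctsz in controls (−0.036) became 0.093 under library totals and 0.053 with satellite levels over 50, and ran from −0.17 to 0.052 without 1 library. The Gaa difference of route differences (−0.035) became 0.013 with the mitochondrial percent and ran from −0.13 to 0.018 without 1 library. Those of Npc2 became −0.17 and −0.15 with the log2 and the over-50 satellite covariates, that of Psap −0.0023 with the latter, and Glb1 in controls 0.32. The causes of these changes were not tested. Genes near the floor of 3 counts, such as Rragd, are limited by depth.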
